A study of Mus musculus with 8 samples.

Results

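Adipocyte genes were examined in RNA-Seq of whole pancreas as 10 members picked by gene symbol, *Adipoq*, *Retn*, *Lep*, *Plin1*, *Plin4*, *Cidec*, *Fabp4*, *Pck1*, *Lipe*, and *Cfd*. All 10 had a row among the 48709 genes of each library. The tissue came from 8-week-old male WT and cKO mice that had received saline or palmitoleic acid (POA) with ethanol 24 hours earlier, a model of alcoholic acute pancreatitis called FAEE-SAP. In cKO mice, Cre driven by the *Pdx1* promoter recombines floxed *Pfkfb3*, the gene of a glycolytic regulator, in cells of the pancreatic lineage. Adipocytes are not part of that lineage. The 4 groups, WT saline, cKO saline, WT FAEE-SAP, and cKO FAEE-SAP, had 2 libraries each, described as biological replicates, and p-values measure only the spread between these libraries.

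White adipocytes store triglyceride in a large lipid droplet, release fatty acids from it on demand, and secrete hormones. Small groups of them lie between the lobules of the pancreas and in the fat around it. During pancreatitis, lipases that leak from acinar cells act on this fat. The members were read in 3 groups, the secreted proteins (*Adipoq*, *Lep*, *Retn*, *Cfd*), the lipid droplet proteins (*Plin1*, *Plin4*, *Cidec*), and the fatty acid carrier and enzymes (*Fabp4*, *Lipe*, *Pck1*).

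The deposited unit was RPKM, reads scaled to the exonic length of a gene and to the mapped reads of its library. Values are given as scaled RPKM, in which each library was divided by the median of its ratios to the geometric mean of all 8, with factors from 0.621 in cKO saline to 2.02 in WT FAEE-SAP. Depth, worked out from the smallest values, was 22.9 to 37.7 M reads per library. Scaled *Pfkfb3* was 1.70 and 1.69 (WT saline), 0.880 and 2.10 (cKO saline), 1.85 and 3.21 (WT FAEE-SAP), then 1.74 and 2.82 (cKO FAEE-SAP), so the genotypes overlapped, and a value for the whole gene does not test a deletion of internal exons. Genotype therefore refers to the labels. The tissue label was checked with 10 acinar genes, which were above 0 in every library with a summed level of 50753 to 225339 scaled RPKM, against 28.2 to 118.7 for the 10 adipocyte members together.

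Upstream sequences of 3 members are shown because *Adipoq* and *Cidec* kept the most constant ratio of any pair of members, while *Plin4* ran against the others. The 250 bases before the RefSeq start site (GRCm38.p6) lie at chr16:23146286-23146535 on the plus strand for *Adipoq*, chr6:113435761-113436010 on the minus strand for *Cidec*, and chr17:56109783-56110032 on the minus strand for *Plin4*. They read 5′ to 3′ along the strand of the gene, and capitals mark TTNNGNAA on either strand, letters of the site bound by C/EBP factors of adipocyte differentiation. The stretch marked in *Adipoq* matches on the opposite strand only. The last 21 bases of the *Plin4* sequence are exonic in GENCODE vM21, where the gene starts farther upstream than in RefSeq.

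Adipoq: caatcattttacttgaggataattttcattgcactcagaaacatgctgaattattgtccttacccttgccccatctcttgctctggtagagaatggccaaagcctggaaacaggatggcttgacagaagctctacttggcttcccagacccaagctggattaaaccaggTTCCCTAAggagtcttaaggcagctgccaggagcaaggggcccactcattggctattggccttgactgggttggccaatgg
Cidec: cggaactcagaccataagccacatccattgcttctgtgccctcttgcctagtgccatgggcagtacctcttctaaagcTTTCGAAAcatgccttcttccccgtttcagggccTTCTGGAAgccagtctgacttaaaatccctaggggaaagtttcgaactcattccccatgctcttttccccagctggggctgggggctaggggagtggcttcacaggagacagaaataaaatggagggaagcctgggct
Plin4: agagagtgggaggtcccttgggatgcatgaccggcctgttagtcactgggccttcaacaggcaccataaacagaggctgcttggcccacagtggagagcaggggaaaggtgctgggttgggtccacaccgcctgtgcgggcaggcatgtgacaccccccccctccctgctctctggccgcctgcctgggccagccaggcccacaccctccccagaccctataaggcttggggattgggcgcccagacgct

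RefSeq promoters around the start site were on hand for 9 of the 10 members, 11 promoters in all. TTNNGNAA, searched on both strands, was in 6 of the 11, from 5 members (*Pck1*, *Lep*, *Cidec*, *Plin1*, and *Adipoq*), compared with 40.7% of 32851 promoters. *Adipoq* had 1 match, from position -81 relative to the start, *Cidec* had 2 in the window shown, from positions -172 and -138, and *Plin4* had none. The nuclear receptor letters AGGTCA (both strands) were in 0 of the 11 and in 16.3% of all promoters and TATAAA on the strand of the gene was in 0 and 8.32%. These are matches of letters within a short window.

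The secreted proteins were read first. *Adipoq*, the gene of adiponectin and the most specific adipocyte marker of the list (chromosome 16, 23146536 to 23158028, GRCm38), was at 0.946 and 3.09 scaled RPKM in WT mice and 2.72 and 1.84 in cKO mice with saline, and at 1.20 and 2.31 in WT mice and 2.26 and 0.408 in cKO mice with FAEE-SAP, with replicate 1 named first here and below. *Adipoq* rested on 17.0 to 201.8 estimated reads, and its libraries overlapped between every pair of groups. Whole tissue was sequenced, so fewer adipocytes and less RNA per adipocyte cannot be told apart.

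*Lep*, which encodes the satiety hormone leptin, was near the limit of detection. Its scaled RPKM was 0 in both WT and 0.153 and 0 in cKO mice with saline, and 0.0257 and 0.0894 in WT mice and 0.0103 and 0 in cKO mice with FAEE-SAP. At most 19.0 estimated reads fell on *Lep* in a library, and a count of 0 allowed up to 3 reads, a scaled RPKM of 0.0297 to 0.0435 in the 4 libraries without a read. These limits cover counting error only. *Lep* was tested in no comparison, because no library reached the minimum of 0.5 RPKM.

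*Retn*, the gene of the adipocyte hormone resistin (chromosome 8, 3655770 to 3660110), was at 0.307 and 0.321 in WT mice and 0.459 and 0.0607 in cKO mice with saline, and 1.02 and 1.16 in WT mice and 1.75 and 0.231 in cKO mice with FAEE-SAP. The WT FAEE-SAP libraries were both above the 4 saline libraries, whereas the cKO FAEE-SAP libraries held the highest value of all and a value below 3 of the 4 saline libraries. *Cfd* encodes adipsin, complement factor D, a protease that adipocytes release. It was at 10.8 and 24.4 in WT mice and 14.9 and 11.9 in cKO mice with saline, and 25.8 and 39.1 in WT mice and 25.9 and 4.85 in cKO mice with FAEE-SAP. Both WT FAEE-SAP libraries were above all saline libraries, and cKO FAEE-SAP replicate 2 was the lowest of the 8.

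**Figure D1:**
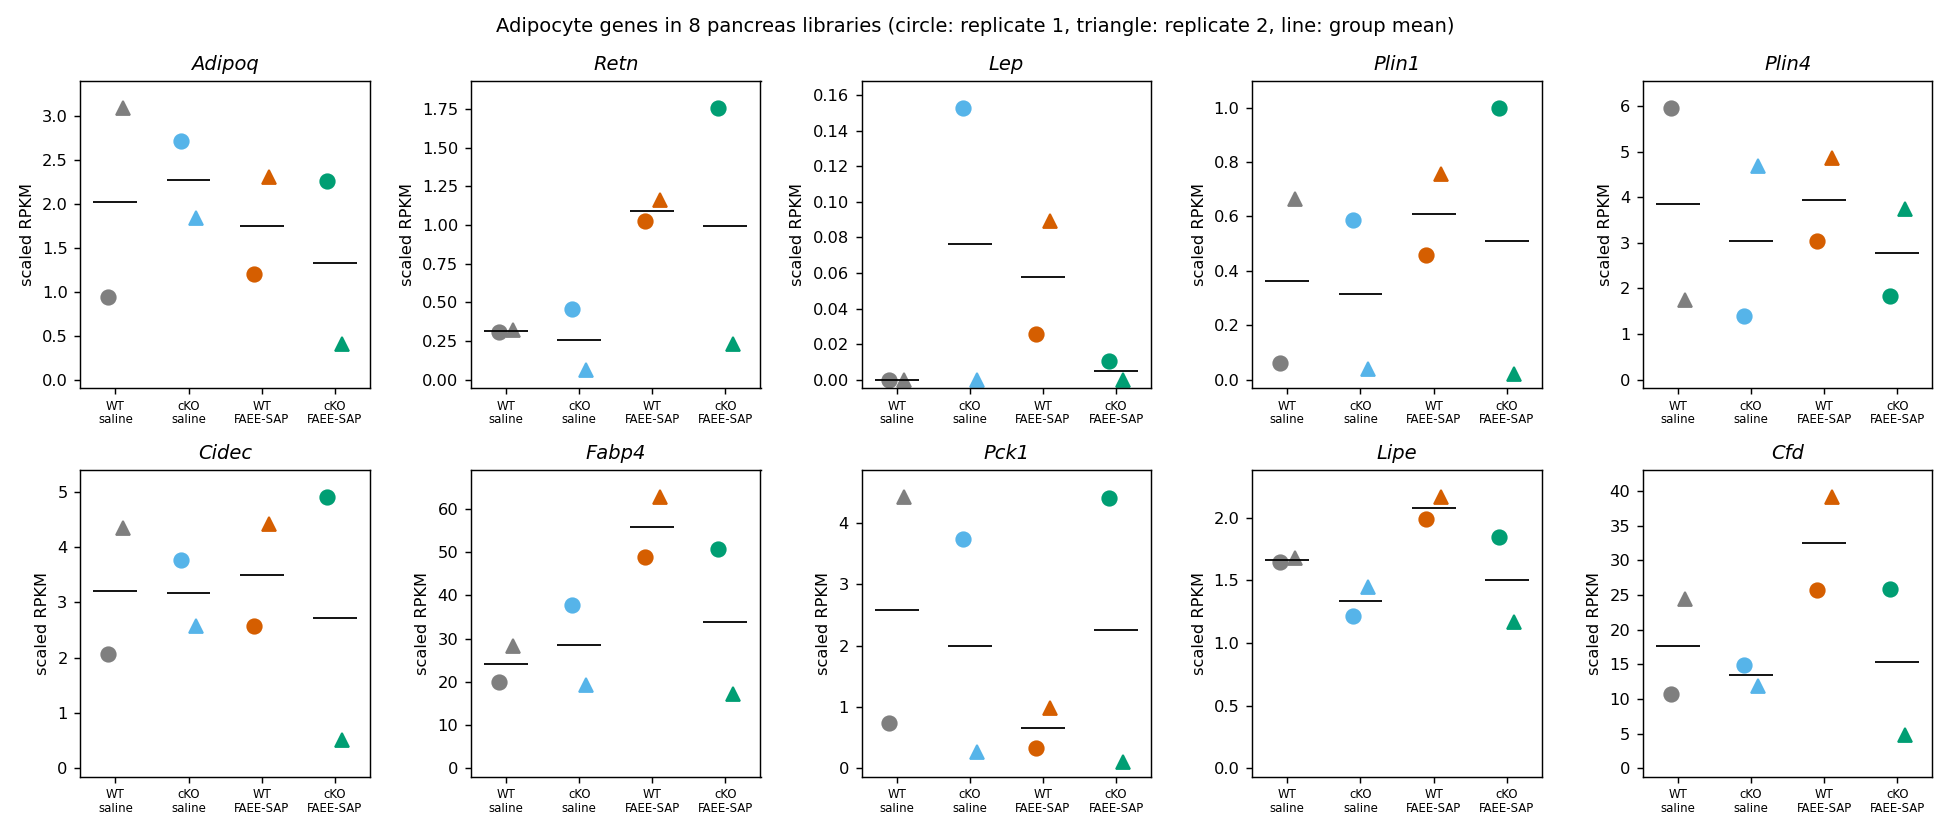
Scaled RPKM (linear axes, each from about 0) of the 10 adipocyte genes in the 8 libraries by group, with replicate 1 as a circle, replicate 2 as a triangle, and the mean of the 2 libraries as a line. Besides the barely detected *Lep*, *Retn*, *Fabp4*, *Lipe*, and *Cfd* were higher in both WT FAEE-SAP libraries than in both WT saline libraries, as were 29.7% of 10894 genes. The library of cKO FAEE-SAP replicate 2 was the lowest for 7 of the 10 genes.

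Of the lipid droplet proteins, *Plin1* encodes perilipin 1, the coat protein of the adipocyte droplet that gates lipolysis (chromosome 7, 79720218 to 79732903). *Plin1* was at 0.0625 and 0.663 in WT mice and 0.587 and 0.0412 in cKO mice with saline, and 0.459 and 0.757 in WT mice and 0.998 and 0.0214 in cKO mice with FAEE-SAP. The highest and the lowest library were both cKO FAEE-SAP, with 133.9 and 3.0 estimated reads, and 2 saline libraries held only 6.0 and 4.0. *Cidec* encodes a protein that fuses droplets into a larger one, and it was at 2.06 and 4.35 in WT mice and 3.77 and 2.58 in cKO mice with saline, and 2.58 and 4.42 in WT mice and 4.91 and 0.518 in cKO mice with FAEE-SAP. As with *Plin1*, both ends of its range were the cKO FAEE-SAP libraries, and the other 3 groups overlapped.

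*Plin4*, which encodes a perilipin of small droplets also made outside fat, for example in muscle, had another order. Its scaled RPKM was 5.95 and 1.76 in WT mice and 1.39 and 4.68 in cKO mice with saline, and 3.04 and 4.86 in WT mice and 1.84 and 3.73 in cKO mice with FAEE-SAP. The 2 libraries with the least *Plin1* in the saline groups had the most *Plin4*, and all groups overlapped. Muscle genes, summed over 8 genes with 1 to 3 of them at 0, were 5.25 and 5.22 in WT mice and 5.11 and 9.0 in cKO mice with saline, and 3.91 and 1.79 in WT mice and 9.50 and 4.22 in cKO mice with FAEE-SAP. They had the order of *Plin4* in cKO saline, were nearly equal in WT saline, and had the other order in both FAEE-SAP groups. *Des*, *Myh11*, *Cnn1*, and *Actg2* made up most of these sums. The skeletal muscle genes *Acta1*, *Ckm*, *Myh4*, and *Myh1* were no higher than 0.248 in any library, so the sums say little about skeletal muscle. The part of muscle cells in the *Plin4* values was not tested.

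The gene of the fatty acid carrier *Fabp4* (chromosome 3, 10204088 to 10208576), also made by macrophages and capillary endothelium, was the most abundant member by RPKM, although the exonic length annotated for it (4489 bases) covers its whole span and sets its level relative to other genes. *Fabp4* was at 19.9 and 28.3 in WT mice and 37.8 and 19.3 in cKO mice with saline, and 48.9 and 62.8 in WT mice and 50.7 and 17.1 in cKO mice with FAEE-SAP. The WT FAEE-SAP libraries were above all 4 saline libraries, and the cKO FAEE-SAP libraries lay on both sides of them. *Pck1* encodes the enzyme that makes the glycerol backbone of triglyceride from pyruvate in adipocytes, and it also works in liver, kidney, and intestine. It was at 0.748 and 4.42 in WT mice and 3.73 and 0.265 in cKO mice with saline, and 0.327 and 0.980 in WT mice and 4.40 and 0.106 in cKO mice with FAEE-SAP, a 41.6-fold range in which each group but WT FAEE-SAP held 1 library above 3.

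*Lipe* encodes hormone-sensitive lipase, which cleaves diglyceride in adipocytes and steroid-making and other cells. Its scaled RPKM was 1.64 and 1.68 in WT mice and 1.22 and 1.45 in cKO mice with saline, and 1.99 and 2.17 in WT mice and 1.85 and 1.17 in cKO mice with FAEE-SAP, a range of 1.86-fold over all 8 libraries. With each treatment, both cKO libraries were below both WT libraries. *Lipe* lies wholly within an antisense gene, 4732471J01Rik, and whether the counting used strand is not stated, so reads of both genes may be mixed.

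The members differed widely between the 2 libraries of a group. On the log2(scaled RPKM + 0.1) scale, 6 of the 10 members differed at least 2-fold between the WT saline libraries, where 5.78% of 11133 genes did so, 5 between the cKO saline libraries (6.93%), 1 between the WT FAEE-SAP libraries (4.95%), and 7 between the cKO FAEE-SAP libraries (7.53%). The median absolute difference of the members was 1.11, 1.15, 0.61, and 2.30 on the log2 scale in the same order. Among the 5 in cKO saline was *Lep*, with 12.0 and 0 estimated reads, which is not among the 11133 genes. *Plin1* and *Retn*, also among the 5, had 4.0 and 2.0 estimated reads in cKO saline replicate 2. *Pck1* had the widest gap, 4.45 on the log2 scale between the cKO FAEE-SAP libraries, and 0.0539% of genes were as far apart there. *Plin1* (3.18) and *Cidec* (3.02) followed. *Lipe* never differed 2-fold.

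Most members shared an order within these pairs of libraries. Of the 10, 7 had the order of *Plin1* in all 4 groups (*Adipoq*, *Retn*, *Plin1*, *Cidec*, *Fabp4*, *Pck1*, and *Cfd*). They were higher in WT saline replicate 2, cKO saline replicate 1, WT FAEE-SAP replicate 2, and cKO FAEE-SAP replicate 1. *Plin1* set this order and so has it by choice, and 7.45% of 11133 genes had it. *Retn* was nearly equal in the WT saline libraries (0.307 and 0.321), where 88.7% of genes were as far apart. The levels of *Lep* were too low to give an order. *Lipe* went the other way in cKO saline, and *Plin4* went the other way in 3 of the 4 groups. Summed over the 10 members, scaled RPKM was 42.4 and 69.1 in WT mice and 66.8 and 42.2 in cKO mice with saline, and 85.3 and 118.7 in WT mice and 94.6 and 28.2 in cKO mice with FAEE-SAP. *Fabp4* and *Cfd* make up most of these sums.

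**Figure D2:**
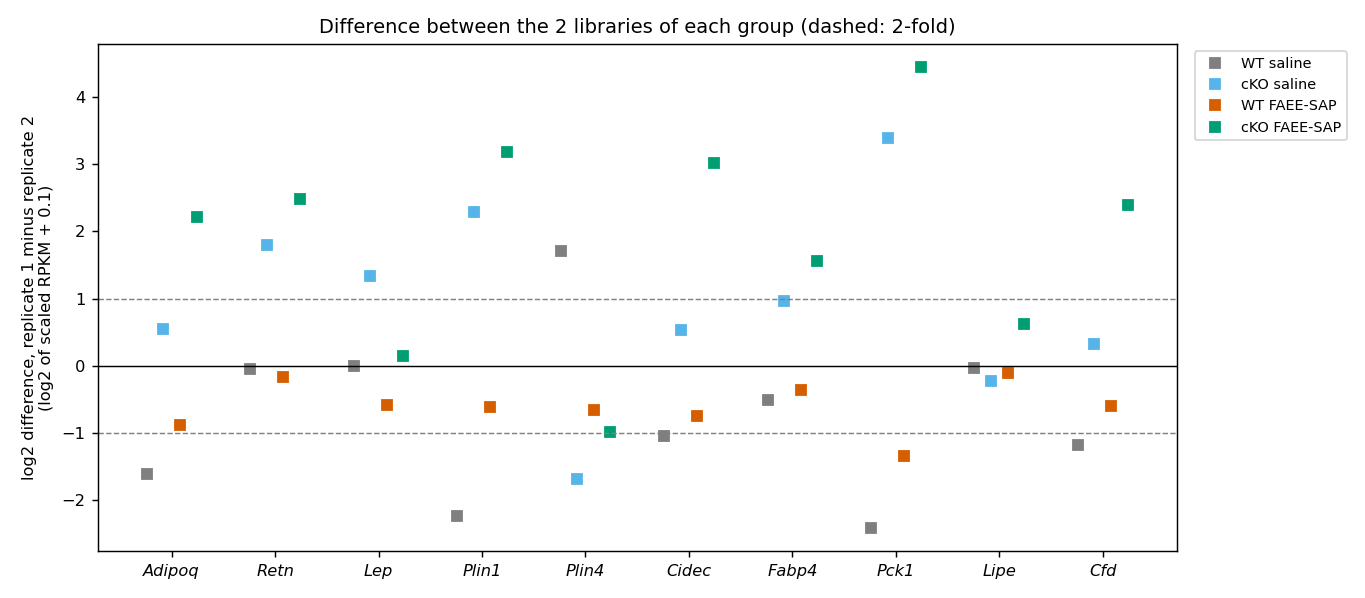
Difference between replicate 1 and replicate 2 of each group for each adipocyte gene (log2 of scaled RPKM + 0.1, 1 square per gene and group, dashed lines at 2-fold). The cKO FAEE-SAP squares reach 4.45 for *Pck1*, and *Plin4* lies on the other side of 0 from *Plin1* in 3 of the 4 groups.

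Over all 8 libraries, the SD of the log2 value was 1.77 for *Pck1*, 1.31 for *Plin1*, and 1.17 for *Retn*, and 0.584%, 1.89%, and 2.83% of genes had an SD as large. The median gene had an SD of 0.32, close to *Lipe* at 0.30.

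Marker genes of other cells were summed in the same libraries. Lymph node genes were 41.4 and 84.9 in WT mice and 30.5 and 36.8 in cKO mice with saline, and 54.7 and 43.6 in WT mice and 73.4 and 41.6 in cKO mice with FAEE-SAP, with 0 of the 10 genes at 0, so they followed the order of the adipocyte members in WT saline and cKO FAEE-SAP and not in the other groups. Intestine genes stood apart in cKO saline replicate 1, at 28.9 with 0 of 8 at 0, compared with 0.0874 to 0.421 and 5 to 7 of 8 at 0 elsewhere. Fatty acid binding protein genes of the gut, *Fabp2* at 8.89 and *Fabp1* at 12.7, were among them, and *Pck1* was 3.73 in that library. The sum of the liver list was also highest there, at 29.3 compared with 3.41 to 16.2, but not all of its genes were. *Apoa1*, no higher than 0.157 elsewhere, had the largest value of the list there. *Cyp3a11* was at 3.93 there and undetected elsewhere, and *Alb* was also highest there, at 2.22. *Ttr* (6.37) and *Cyp2e1* (5.53) were lower there than in WT saline replicate 2 (7.52 and 8.40). Whether the reads of this list came from liver or intestine was not tested. In cKO FAEE-SAP, macrophage genes were at 132 and 114 and endothelial genes at 27.3 and 20.9, higher in replicate 1, as the adipocyte members other than *Plin4* and the barely detected *Lep* were. Macrophage genes had the order of the summed members in both saline groups and the other order in WT FAEE-SAP (100.4 and 74.2). Endothelial genes had that order in both WT groups and were nearly equal in cKO saline (16.7 and 16.9). The part of these cells in the member values was not tested.

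Brown adipocyte genes were at 0.513 to 1.39 in sum over 8 genes, with 1 to 4 of the 8 at 0, and the defining gene *Ucp1* was at 0 in 6 libraries and no higher than 0.0212 in the others. Stroma and fibroblast genes were at 59.0 to 79.8, and islet genes at 182 and 239 in WT FAEE-SAP and 285 to 450 in the other groups. Neither list had a gene at 0. The mesothelial list held *Krt8* and *Krt18*, which epithelial cells also make and which took up most of its sum of 96.8 to 285. Its other 6 genes, none at 0, were at 3.02 and 3.83 in WT mice and 6.69 and 3.91 in cKO mice with saline, and 1.47 and 1.31 in WT mice and 5.44 and 1.94 in cKO mice with FAEE-SAP, lower in both WT FAEE-SAP libraries than in the other 6 libraries. Their part in the member values was not tested.

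**Figure D3:**
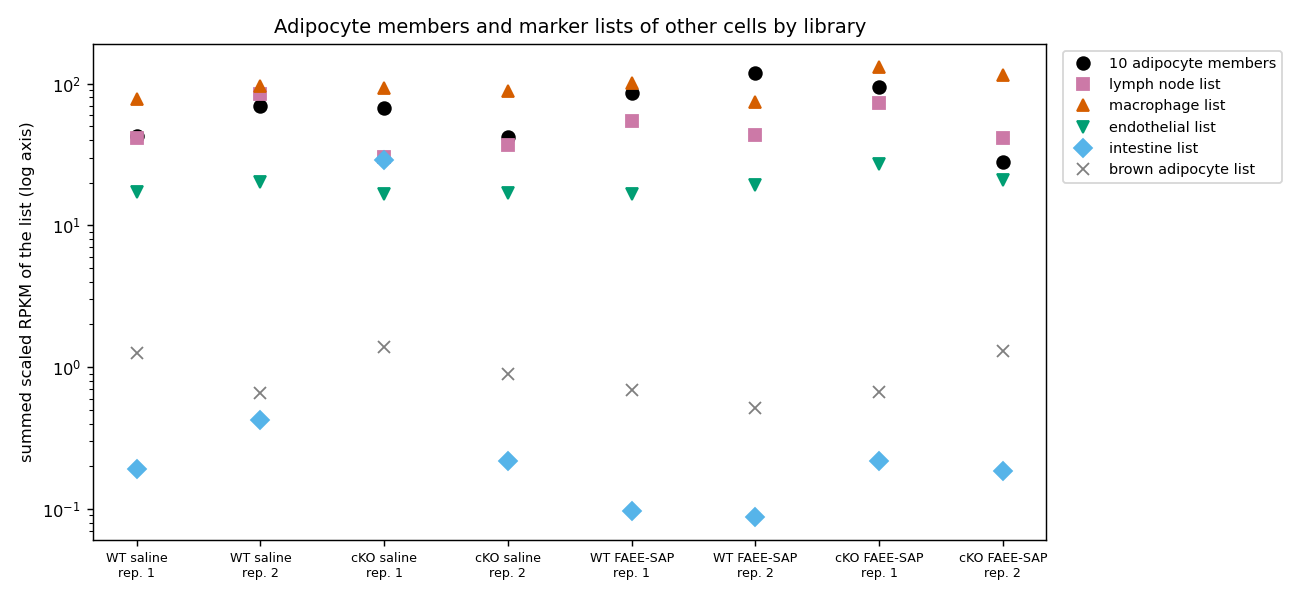
Summed scaled RPKM (log axis) of the 10 adipocyte members and of marker lists of other cells in each library. The intestine list stands at 28.9 in cKO saline replicate 1 and under 1 elsewhere, and the brown adipocyte list is between 0.513 and 1.39.

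Ratios of 2 members in the same library do not depend on scaling. *Adipoq* to *Cidec* was 0.459 and 0.711 in WT mice and 0.721 and 0.712 in cKO mice with saline, and 0.466 and 0.522 in WT mice and 0.460 and 0.788 in cKO mice with FAEE-SAP, the narrowest range, 1.72-fold, of the 36 pairs of the 9 members other than *Lep*. Each gene alone ranged 7.57-fold and 9.47-fold. *Plin4* to *Plin1*, in contrast, ran from 1.84 to 174, the latter on 3.0 estimated reads of *Plin1*.

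Of the 36 pairs, 6 separated the 4 FAEE-SAP libraries from the 4 saline libraries. *Retn* to *Cidec* was 0.149, 0.0738, 0.122, and 0.0235 in the saline libraries and 0.397, 0.262, 0.358, and 0.446 in the FAEE-SAP libraries. *Retn* thus made up a larger share relative to *Cidec* in every FAEE-SAP library, cKO replicate 2 included, and 1.73% of 11132 genes did so against *Cidec*. *Pck1* to *Plin1* was 12.0, 6.67, 6.36, and 6.44 with saline, and 0.712, 1.29, 4.41, and 4.97 with FAEE-SAP. It was lowest in WT FAEE-SAP, and 0.0269% of 11132 genes fell below in this way against *Plin1*. *Plin1* rested on few reads in 3 of these libraries. In the other 4 pairs, *Adipoq* was lower with FAEE-SAP relative to *Retn*, *Fabp4*, and *Cfd*, and *Cidec* was lower relative to *Fabp4*. Of all genes, 2.42% were higher with FAEE-SAP relative to *Adipoq* in this way. For 3 of these 4 pairs the highest FAEE-SAP ratio, that of cKO FAEE-SAP replicate 1, was close to the lowest saline ratio. The 2 ratios were 0.0871 and 0.0880 for *Adipoq* to *Cfd*, 0.0445 and 0.0475 for *Adipoq* to *Fabp4*, and 0.0968 and 0.0996 for *Cidec* to *Fabp4*. *Retn* rested on 2.0 estimated reads in cKO saline replicate 2. The pairs were singled out after their values were seen and were not tested.

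**Figure D4:**
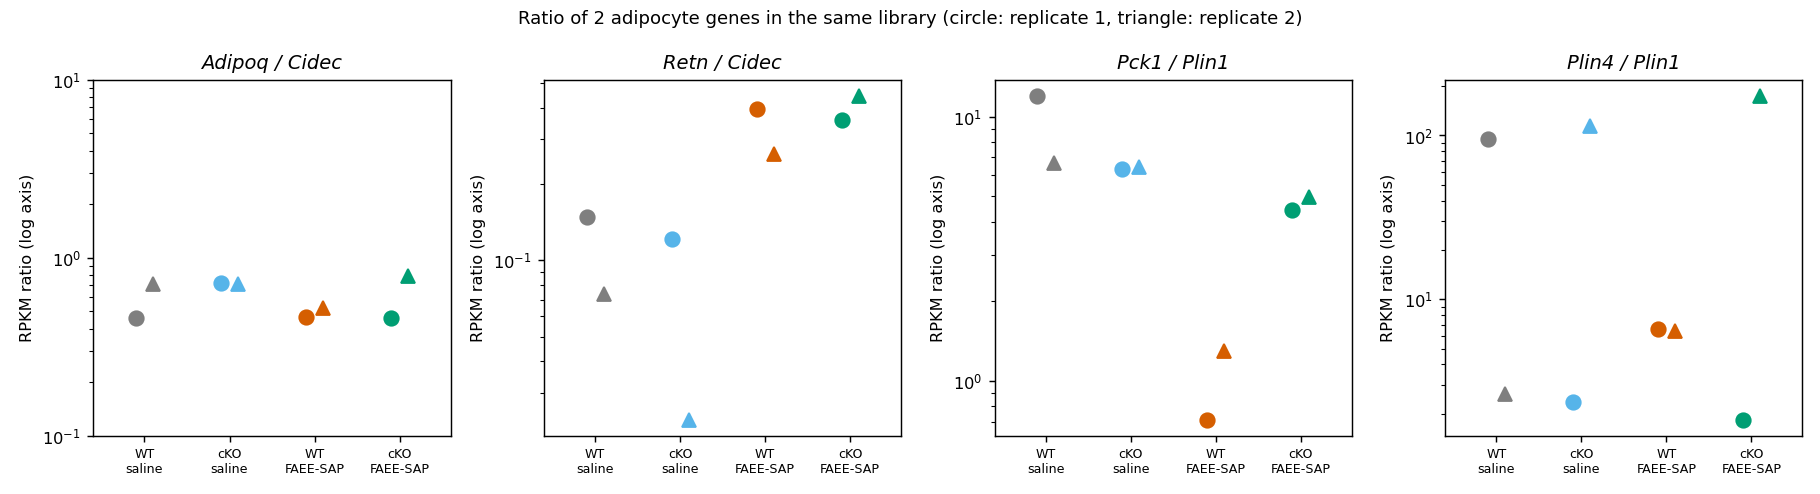
Ratio of RPKM of a pair of adipocyte genes within each library (log axes), by group, with replicate 1 as a circle and replicate 2 as a triangle. *Adipoq* to *Cidec* stays between 0.459 and 0.788, *Retn* to *Cidec* is higher in all 4 FAEE-SAP libraries, *Pck1* to *Plin1* is lower in all 4, and *Plin4* to *Plin1* runs from 1.84 to 174.

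In WT mice, *Fabp4* rose with FAEE-SAP. Genes were tested where at least 2 libraries of the comparison reached an RPKM of 0.5, and were called at an adjusted p-value under 0.05 with a change of at least 2-fold. By this rule 2 of the 9 members tested were past the threshold, where 6.93% of 10894 genes were called (3.08% higher). The log2 fold change of *Fabp4* was 1.21 (SE 0.23, adjusted p = 0.0394), tested by limma, with p-values adjusted by the Benjamini-Hochberg method over the whole table. The other was *Retn*, at 1.56 (SE 0.24, adjusted p = 0.0234). It reached the minimum RPKM through its FAEE-SAP libraries alone, so that it could enter the test only by being high there, and its value is a description. Without the minimum, neither was called (adjusted p = 0.0667 for *Retn* and 0.0755 for *Fabp4*, limma). *Fabp4* was also not called without the intensity trend of limma (adjusted p = 0.0670) or with all 8 libraries in 1 model (adjusted p = 0.175). Both FAEE-SAP libraries were above both saline libraries for 4 of the 10 members (*Retn*, *Fabp4*, *Lipe*, and *Cfd*), and 29.7% of genes were higher without overlap. *Lep* was not among them, because the limit for a count of 0 in the saline libraries lies above its level in WT FAEE-SAP replicate 1.

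The difference was 0.96 on the log2 scale (SE 0.42, adjusted p = 0.204, limma) for *Cfd* and 0.30 (SE 0.20) for *Lipe*, neither past the test. *Adipoq* was at -0.05 (SE 0.58), *Plin1* at 1.04 (SE 0.77), and *Pck1* at -1.56 (SE 0.85, adjusted p = 0.296, limma). With 1 WT library left out in turn, *Cfd* ran from 0.38 (without saline replicate 1) to 1.53 (without saline replicate 2), *Pck1* from -2.81 to -0.36 for the same libraries, and *Plin1* from -0.15 to 2.30, where it was past the threshold without saline replicate 2 (adjusted p = 0.0259, limma), which left it at the minimum RPKM in its FAEE-SAP libraries alone. A group left with 1 library is assumed in such fits to vary like the other group. The median over the 9 members was 0.30, compared with 0.02 for all genes tested. It was 0.11 with 4 of 8 positive without FAEE-SAP replicate 2, 0.59 without FAEE-SAP replicate 1, and 0.75 without saline replicate 2. Without scaling, all genes had a median of 1.24, and 7 members were called, where 7184 of 10894 genes were called higher and 86 lower.

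Macrophage genes, 78.1 and 95.9 with saline and 100.4 and 74.2 with FAEE-SAP in WT mice, overlapped between these groups, as did endothelial genes, at 17.2 and 20.2 and then 16.7 and 19.2. None of either list was called in this comparison. *Ly6a* of the stroma list was called higher, and *Gcg* and *Sst* of the islet list were called lower. All 10 acinar genes had negative log2 fold changes with FAEE-SAP and 9 were called lower, at 50753 and 51721 in sum compared with 193451 and 165440. The part of this shift in the member values was not tested. *Fabp4* was no longer called without WT saline replicate 1 (adjusted p = 0.124, limma), WT FAEE-SAP replicate 1 (0.0777), or WT FAEE-SAP replicate 2 (0.182), and *Retn* was no longer called without either WT saline library (0.0830 and 0.0570) and was not tested without either WT FAEE-SAP library, when only 1 library reached the minimum RPKM.

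In cKO mice, 0 of the 7 members tested were called with FAEE-SAP compared with saline by limma, none had an unadjusted p-value under 0.05, and 0.0531% of 9423 genes were called. Log2 fold changes ran from -1.04 (*Adipoq*, SE 0.76) to 0.16, with a median of -0.21, and 0 of the 10 members separated the groups, where 19.6% of genes were higher and 23.6% lower without overlap. *Retn* and *Plin1* were not tested here, as each reached the minimum RPKM only in cKO FAEE-SAP replicate 1. Without cKO FAEE-SAP replicate 2, the library that was lowest for 7 members, the median was 0.73 and 6 of 7 values were positive, and without cKO FAEE-SAP replicate 1 it was -1.01 with 1 of 6 positive. Whether the response differed by genotype was tested as an interaction over all 8 libraries, in which 0 of 9 members and 0.0719% of 11133 genes were called by limma. The interaction was -1.10 (SE 0.74, adjusted p = 0.581) for *Fabp4* and -1.21 (SE 1.04, adjusted p = 0.673) for *Cfd*. Without cKO FAEE-SAP replicate 2 these were -0.32 and -0.02, and the median over the members went from -0.75 with 1 of 9 positive to 0.14 with 6 of 9 positive. Without cKO FAEE-SAP replicate 1 they were -1.86 and -2.40, none of the members was called, and the median was -1.86 with 1 of 9 positive.

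**Figure D5:**
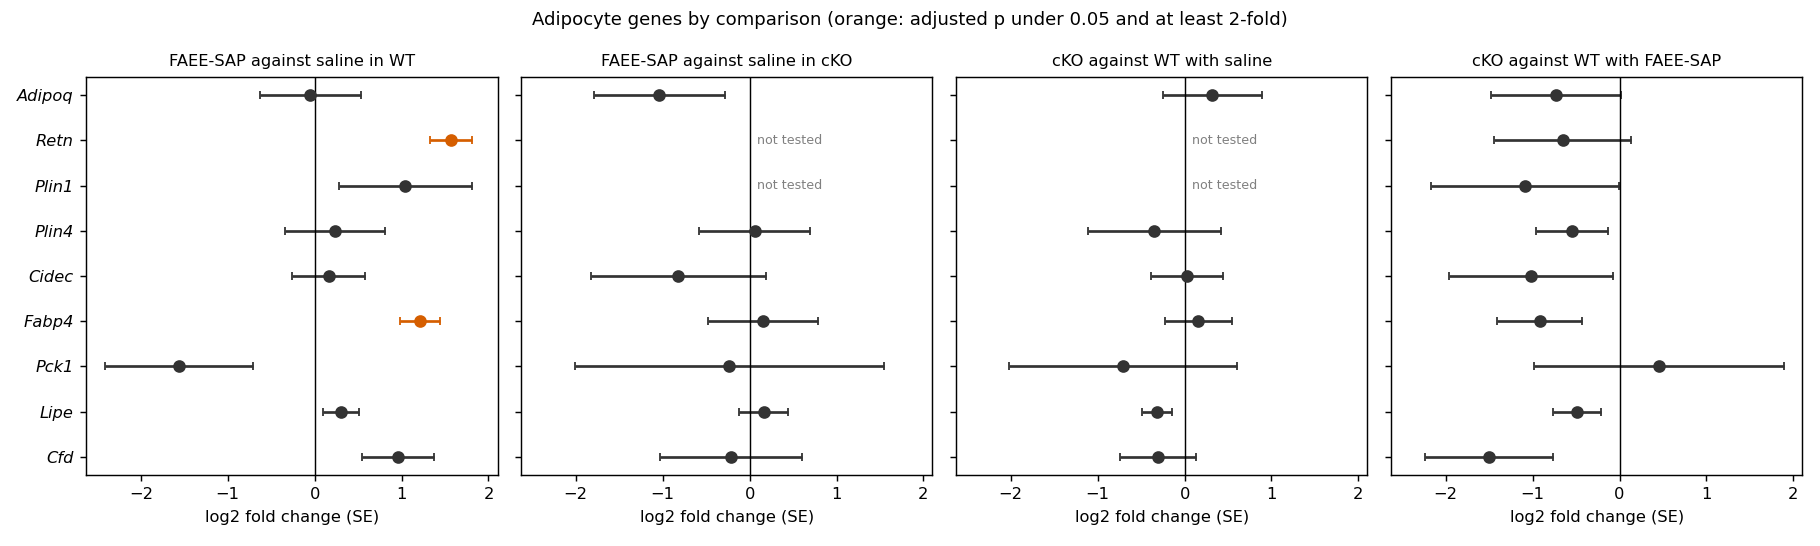
Log2 fold change with SE (log2 of scaled RPKM + 0.1, limma) of 9 adipocyte genes in 4 comparisons of 2 libraries with 2 libraries, with called genes in orange. *Fabp4* is called with FAEE-SAP in WT mice, as is *Retn*, which reached the minimum RPKM there through its FAEE-SAP libraries alone, and no gene is called in the other panels.

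In cKO compared with WT mice after FAEE-SAP, 8 of the 9 members tested had negative log2 fold changes, 0 were called by limma, 0 had an unadjusted p-value under 0.05, and 1.27% of 11008 genes were called. The values were -1.50 (SE 0.74, adjusted p = 0.331) for *Cfd*, -1.09 (SE 1.08) for *Plin1*, -1.02 (SE 0.95) for *Cidec*, -0.92 (SE 0.49, adjusted p = 0.366) for *Fabp4*, and -0.49 (SE 0.28) for *Lipe*. Without cKO FAEE-SAP replicate 1 they were -2.68 for *Cfd*, -1.68 for *Fabp4*, and -0.78 for *Lipe*, and without cKO FAEE-SAP replicate 2 they were -0.32, -0.16, and -0.19. *Lipe*, 1 of the 10 members, was lower without overlap, as were 25.3% of genes. The direction of the median rested on 1 library. Without cKO FAEE-SAP replicate 2 the median over the members went from -0.73 to 0.39 with 5 of 9 positive. Without replicate 1 it was -1.90 with 0 of 9 positive. In the deposited values all genes had a median of -0.91. There 4 members (*Cfd*, *Fabp4*, *Lipe*, and *Plin4*) were called lower, as were 4354 of 11008 genes, while 73 genes were called higher. With scaling, all 10 acinar genes had positive log2 fold changes and 6 were called higher. Their sums were 130431 and 147635 in cKO mice, and 50753 and 51721 in WT mice. Of the islet genes, 6 of 7 were positive and 3 were called higher, and 7 of 8 macrophage genes were positive. The part of these shifts in the member values was not tested.

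With saline, cKO compared with WT mice had 0 of 7 members called by limma, and 0.0% of 8715 genes were called. The lowest unadjusted p-value of a member was 0.124, and 187 genes were under 0.05. Log2 fold changes ran from -0.71 to 0.32. *Lipe* was lower in both cKO libraries than in both WT libraries, as were 12.0% of genes without overlap. Leaving out cKO saline replicate 1, with its intestine genes, also gave 0 calls.

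Over all 8 libraries, *Retn* was higher with FAEE-SAP by 1.45 on the log2 scale (SE 0.55, unadjusted p = 0.0279, adjusted p = 0.145, limma), which did not pass although only FAEE-SAP libraries brought it to the minimum RPKM, and 0 of 9 members were called where 2.72% of 11133 genes were. For cKO compared with WT mice over both treatments, all 9 values tested were negative, with a median of -0.43, 0 members were called by limma, and 0.0% of genes were called. *Lipe* had the lowest p-value of the members (log2 fold change -0.39, SE 0.16, unadjusted p = 0.0441, adjusted p = 0.456, limma), and 1209 genes were under 0.05 before adjustment. Without cKO FAEE-SAP replicate 2, 5 of the 9 values were positive.

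Other genes of adipocyte metabolism, 61 in 7 lists, were read beside the members. In WT mice, 44 of them were tested, of which 3 were called higher and 3 lower with FAEE-SAP, with a median of 0.14, where 3.08% of all genes were called higher and 3.86% lower. *Dgat2*, which makes triglyceride from diglyceride, rose by 2.47 on the log2 scale (SE 0.27, adjusted p = 0.00959, limma), from 0.283 and 0.452 scaled RPKM to 2.30 and 2.44. It reached the minimum RPKM through its FAEE-SAP libraries alone, and without the minimum it was called as well (adjusted p = 0.0329, limma). *Plin2*, the droplet coat protein of most cells, rose by 2.73 (SE 0.32, adjusted p = 0.0109), from 1.46 and 2.20 to 9.72 and 15.9. *Pnpla2*, the gene of adipose triglyceride lipase, rose by 2.04 (SE 0.42, adjusted p = 0.0437), from 9.36 and 6.10 to 21.1 and 46.9. The groups did not overlap for any of these genes, which are expressed in many cell types.

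The 3 that fell belonged to 3 lists. *Lpl*, the lipase that releases fatty acids from circulating lipoproteins, was at -2.25 on the log2 scale (SE 0.23, adjusted p = 0.00721), with 13.9 and 11.6 scaled RPKM after saline and 2.28 and 3.03 after FAEE-SAP. *Ces1d*, which encodes another triglyceride hydrolase of adipocytes and liver, was at -2.71 (SE 0.19, adjusted p = 0.00298, limma). *Scd2*, a fatty acid desaturase, was at -1.33 (SE 0.27, adjusted p = 0.0442, limma). Without 1 WT library in turn, *Lpl* and *Ces1d* were called each time, *Dgat2* was called without either saline library and not tested without either FAEE-SAP library, *Plin2* was not called without FAEE-SAP replicate 2 (adjusted p = 0.0745, limma), and *Pnpla2* and *Scd2* were not called without either saline replicate or FAEE-SAP replicate 2 (0.0721 to 0.160). *Pnpla2* and *Scd2* were also not called without the minimum RPKM, without the intensity trend, or with the replicate number as a block (adjusted p = 0.0584 to 0.0929, limma), and *Pnpla2* not with all 8 libraries in 1 model (0.0591). As deposited, *Scd2* was at -0.05 and *Lpl* at -0.94, under 2-fold.

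In cKO compared with WT mice after FAEE-SAP, 45 of the 61 were tested and 1 was called, where 1.27% of all genes were. This was *Lpl*, which was higher in cKO mice by 1.80 on the log2 scale (SE 0.24, adjusted p = 0.0387, limma), at 8.61 and 10.3. That call was lost without any 1 of the 4 libraries (adjusted p = 0.0546 to 0.207, limma), without the minimum RPKM (0.151), and without the intensity trend (0.0630), and as deposited the difference was 0.86, under 2-fold. Over both genotypes, *Plin2* was higher with FAEE-SAP (2.0 on the log2 scale, SE 0.36, adjusted p = 0.0266, limma), with 6.62 and 3.74 in the cKO FAEE-SAP libraries, and it was not called without any 1 of the 4 WT libraries (adjusted p = 0.0705 to 0.0902, limma), without the minimum RPKM (0.0552), or with the replicate block (0.0506). In the other 4 comparisons 0 of the 61 were called.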

How the data were processed

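RNA was extracted with Trizol and libraries were made with a directional kit. The authors filtered reads with fastp, mapped them to Ensembl GRCm38.p6 with CLC Genomics Workbench, and deposited RPKM per gene. How the RPKM were computed, and whether strand was used, is not given in the sources used here. Library totals were worked out from the smallest values with exonic lengths of GENCODE vM21 (matched for 95.1% of genes), and 84.1% to 85.6% of values under 20 reads were whole within 0.1 read, so reads per gene are estimates.

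The 8 libraries were assigned to 4 groups by their titles. For each comparison, genes were kept that reached 0.5 RPKM in 2 or more of its libraries, the libraries were scaled by the median of ratios, and log2(scaled RPKM + 0.1) was fitted in limma (version 3.58.1, R 4.3.3) with the trend option. Values printed per library were scaled over all 8. The pseudocount understates changes of low genes. A gene was called when its adjusted p-value (Benjamini-Hochberg) was below 0.05 and its change 2-fold or more. The interaction and the comparisons over both genotypes or treatments used all 8 libraries. The procedure was tested on simulated data. These had less spread between replicates than most members, and only genes above a minimum level were changed. That test therefore does not cover members with low levels or wide spread. The members and lists were chosen with earlier results of these data known. The genes named were the 10 members, up to 3 called genes per direction of each adipocyte list, defining or called genes of marker lists, and the 10 genes most like the members. The alternatives are given in the closing section, and figures were drawn with Python 3.11.15 and matplotlib 3.10.9.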

Additional observations from a re-analysis of the deposited data

How the results depend on the processing

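Limits of these data included 2 libraries per group and low levels: *Lep* and, in some libraries, *Plin1* and *Retn* rested on a few estimated reads. With FAEE-SAP in WT mice (2 members called), 7 were called as deposited, 1 (*Fabp4*) with a pseudocount of 1, 1 (*Retn*) without the intensity trend, 0 without the filter, and 0 with all 8 libraries in 1 model. As deposited, 7184 of 10894 genes were called higher there and 86 lower. Leaving out 1 library gave 0 to 2 members. Across these alternatives, libraries left out aside, the adjusted p (limma) ran from 0.00133 to 0.273 for *Retn* and from 0.00143 to 0.175 for *Fabp4*. In cKO compared with WT mice after FAEE-SAP (0 called), 4 were called lower as deposited, as were 4354 of 11008 genes. With FAEE-SAP over both genotypes (0 called), 5 were called as deposited, where 4498 of 11133 genes were called higher and 30 lower. By an unadjusted p-value, 1 (*Retn*) was called, where 310 genes were called higher and 303 lower. Counts stayed at 0 for the other 4 comparisons. The causes of these shifts were not tested.

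Of the 59 log2 fold changes of members in the 7 comparisons, 37 changed sign with at least 1 of the libraries left out, 21 of them without cKO FAEE-SAP replicate 2. Of the same 59, 10 changed sign under another setting, 8 of them as deposited. Among the values discussed singly, those with 1 library left out ran from -2.10 to 0.11 for *Adipoq* with FAEE-SAP in cKO mice, from -0.15 to 2.30 for *Plin1* with FAEE-SAP in WT mice, and from -2.93 to 0.67 for *Plin1* and -2.55 to 0.50 for *Cidec* in cKO compared with WT mice after FAEE-SAP. Count-based DESeq2 was not run, since the files used here hold RPKM.

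Deviations of same-numbered libraries from their group means correlated at -0.522 to -0.175 between WT saline and each other group and at 0.184 to 0.399 among the other 3 groups, across 11133 genes, so replicate numbers were not taken as pairs. With the replicate block, 1 member was called with FAEE-SAP in WT mice (*Fabp4*, with *Retn* at an adjusted p of 0.0583 from limma), in a total of 183 genes higher and 259 lower compared with 335 and 420 without it. In each other comparison 0 members were called with the block, while the genes called went from 95 higher and 45 lower to 330 and 238 in cKO compared with WT mice after FAEE-SAP, from 5 and 0 to 40 and 12 with FAEE-SAP in cKO mice, from 163 and 140 to 91 and 73 with FAEE-SAP over both genotypes, and from 5 and 3 to 0 and 0 for the interaction. With the WT saline numbers exchanged, an alternative chosen after seeing the data, 1 member (*Retn*, with *Fabp4* at an adjusted p of 0.0534 and *Scd2*, not a member, at 0.0516 from limma, neither called) and 378 higher and 444 lower genes were called in WT mice, and 0 between genotypes with saline.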

Other observations

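Genes other than the members were ranked by how closely they followed the mean profile of the 9 members other than *Lep* over the 8 libraries, as the root mean square difference of centred log2 values. Among 9308 genes the closest were *Trbc2* (0.338), *Ier5* (0.342), *P2ry10* (0.363), *Scd1* (0.370), *Gimap8* (0.372), *Fcrla* (0.373), *AW112010* (0.373), *Ly6d* (0.374), *Cebpg* (0.381), and *Dennd1c* (0.384). A flat gene would differ by 0.678 and the median gene differed by 0.743. Of the 9 members themselves, 3 lay farther from the profile than a flat gene, *Pck1* (1.20), *Plin4* (1.19), and *Retn* (0.727). *Scd1* is a fatty acid desaturase abundant in fat. Its scaled RPKM was 7.92 and 13.0 in WT mice and 17.6 and 8.39 in cKO mice with saline, and 10.1 and 20.3 in WT mice and 10.7 and 5.20 in cKO mice with FAEE-SAP, the same order of libraries in each group as *Plin1*.

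*Trbc2*, a constant region gene of the T cell receptor, was at 2.17 and 5.74 in WT mice and 2.40 and 2.28 in cKO mice with saline, and 4.23 and 4.13 in WT mice and 5.35 and 1.49 in cKO mice with FAEE-SAP. Like the lymph node list, it was higher in WT saline replicate 2 and cKO FAEE-SAP replicate 1 than in the other library of each group. In the WT FAEE-SAP libraries it was nearly equal.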
